A study of Mus musculus with 4 samples.

Results

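The genes described here store or sense iron, move it across membranes, break down heme, or encode secreted proteins that bind hemoglobin or siderophores or oxidise iron. They are the 10 entries of the deposited mouse gene count table whose symbol is Fth1, Ftl1, Slc40a1, Tfrc, Hmox1, Slc11a1, Hp, Lcn2, Cp or Ireb2, out of 54532 entries in all. The 10 symbols were selected on the read counts of these 4 libraries, so their values are given as a description and without a p-value. Each symbol matched 1 entry, and all 10 passed the filter of at least 10 reads in at least 1 library, as did 13715 of the 54532 entries.

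RNA sequencing was performed on 4 cultures of peritoneal macrophages of wild-type (WT) mice. The methods of the study give BALB/c mice injected with thioglycollate broth as the source of such cells, and young adult WT animals. That source would make the cells recruited rather than resident macrophages, which was not tested in these libraries. How many animals were pooled is not given in the sources used here. The cultures were kept in normal medium (RPMI) or in medium with 30% of medium conditioned by 4T1, a BALB/c mammary carcinoma line (4T1-CM). Both media were used with the vehicle DMSO in 1 culture and with 10 µM of CH223191, which antagonises the aryl hydrocarbon receptor (AHR), in another. The question of the design is what AHR activity does in macrophages exposed to tumor signals, and the labels do not give the duration of the exposure. There is 1 library per condition, so the spread between cultures is unknown, no difference below has a replicate check, and the 95% intervals cover counting error only.

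Macrophages take up iron from transferrin and from heme, and return most of it to the blood. Inside the cell, iron that is not used is stored in ferritin, a shell of heavy and light chains encoded by Fth1 and Ftl1. Ferroportin, encoded by Slc40a1, is the exporter of iron, and the ferroxidase ceruloplasmin, encoded by Cp, helps to load the exported iron onto transferrin. Tfrc encodes the receptor that takes up iron-loaded transferrin, and Slc11a1 (NRAMP1) moves divalent metals out of the phagosome. Hmox1 encodes heme oxygenase 1, which opens the heme ring and frees its iron. Haptoglobin (Hp) binds free hemoglobin, and lipocalin 2 (Lcn2) binds siderophores, the small iron carriers of bacteria. Ireb2 encodes IRP2, a protein that binds RNA hairpins called iron-responsive elements when iron is scarce. Bound at the 5′ end of a message the protein blocks translation, and bound at the 3′ end of the Tfrc message it protects the message from decay.

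The hairpins are shown because they mark which of these messages the iron-sensing proteins are known to bind. The transcripts searched were those of GENCODE M21 (build GRCm38, strain C57BL/6). The search found such a hairpin in an untranslated region of 4 of the 10 genes. The search looked on the transcript strand for a C, then 5 bases, then the loop CAGTGN, then 5 bases that pair with the 5 before the loop, with G-T pairs allowed. Each line gives 29 bases from 5′ to 3′, in which the capitals mark the single C and the loop.

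Fth1, 5′ untranslated region, chr19:9982732-9982760, plus strand: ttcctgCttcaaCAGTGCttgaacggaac
Ftl1, 5′ untranslated region, chr7:45459779-45459807, minus strand: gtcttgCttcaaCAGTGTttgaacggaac
Slc40a1, 5′ untranslated region, chr1:45925465-45925493, minus strand: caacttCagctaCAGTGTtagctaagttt
Tfrc, 3′ untranslated region, chr16:32631219-32631247, plus strand: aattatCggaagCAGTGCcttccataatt
Tfrc, 3′ untranslated region, chr16:32631598-32631626, plus strand: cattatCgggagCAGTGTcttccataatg
Tfrc, 3′ untranslated region, chr16:32631663-32631691, plus strand: ctatatCggagaCAGTGAtctccatatgt
Tfrc, 3′ untranslated region, chr16:32631710-32631738, plus strand: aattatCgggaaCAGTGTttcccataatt

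Fth1, Ftl1 and Slc40a1 had 1 element each, at the 5′ end, and Tfrc had 4, all at the 3′ end. Of 21901 protein-coding genes, 31 (0.142%) had a match in the 5′ and 129 (0.589%) in the 3′ untranslated region. The match is of letters alone, and no such letters were found in the untranslated regions of the other 6 genes. The coordinates of each gene, as deposited, are given with its values and were identical to those of the annotation for 9 of the 10 genes. The Fth1 entry of the deposited table starts later and ends earlier than the annotated gene, and the hairpin lies within it.

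The libraries held between 15535405 and 17557127 counted reads, and where a gene has 0 reads its level could be up to that of 3 reads, which was 0.171 to 0.189 CPM (counts per 1000000 reads of a library, after scaling between libraries). The label of the cells was checked against 7 macrophage markers (Adgre1, Cd68, Csf1r, Itgam, Lyz2, Mertk and Fcgr1), all of which were present in every library. Their summed level was 14028 to 18261 CPM in normal medium and 37499 to 40034 CPM in 4T1-CM. Lyz2 made up most of the sum, at 11888 and 15185 CPM in normal medium and 32957 and 35572 CPM in 4T1-CM. The other markers are given in CPM for normal medium and then 4T1-CM, each with DMSO and then CH223191. Adgre1 stood at 257 and 246, then 1024 and 872. Cd68 stood at 1146 and 2055, then 2055 and 2154, and Csf1r at 508 and 510, then 1038 and 1006. Itgam stood at 159 and 175, then 265.5 and 263. Mertk stood at 54.0 and 68.1, then 71.7 and 88.9, and Fcgr1 at 16.0 and 22.1, then 88.3 and 78.7. The 7 erythroid markers summed to at most 0.185 CPM, and both alpha globin and both beta globin genes had 0 reads. How reads that match several genes were counted is not given in the sources used here, so the 0 of the paired globin genes is uncertain. Hemoglobin or heme brought in by the medium was not measured. In whole cultures, fewer cells of a type and less RNA per cell cannot be told apart.

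The genes were read in 4 comparisons. In 2 of them the media were compared, once in the presence of DMSO and once of CH223191, and in the other 2 the inhibitor was compared with its vehicle in each medium. The 2 comparisons of the media share no library with each other, and neither do the 2 of the inhibitor, but each comparison of the media shares a library with each of the inhibitor. A gene was called when its scaled level differed at least 2-fold. With 4T1-CM and DMSO, 5 of the 10 genes were at least 2-fold higher (Fth1, Hmox1, Hp, Lcn2 and Cp), where 12.2% of all genes were, and 2 were at least 2-fold lower (Slc40a1 and Tfrc), where 6.12% of all genes were. With 4T1-CM and CH223191, 4 were higher (Fth1, Hp, Lcn2 and Cp; 12.0% of all genes) and 1 was lower (Slc40a1; 7.86%). The same 4 were thus higher in both comparisons, beside 8.18% of all genes, and Slc40a1 was lower in both, beside 3.38%. Since the genes were picked with these counts known, nothing is read from the excess. When 10 reads were required in every library, 8 of the genes remained, since Lcn2 and Cp had passed through the libraries with 4T1-CM alone. With DMSO 3 of the 8 were higher (7.22% of all such genes) and 2 lower (4.25%), with CH223191 2 were higher (7.38%) and 1 lower (5.75%), and in both comparisons together 2 were higher (4.98%) and 1 lower (2.59%). The median log2 ratio of the 10 genes was 0.97 with DMSO and 0.58 with CH223191, against 0.01 and 0.02 over all genes.

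**Figure D1:**
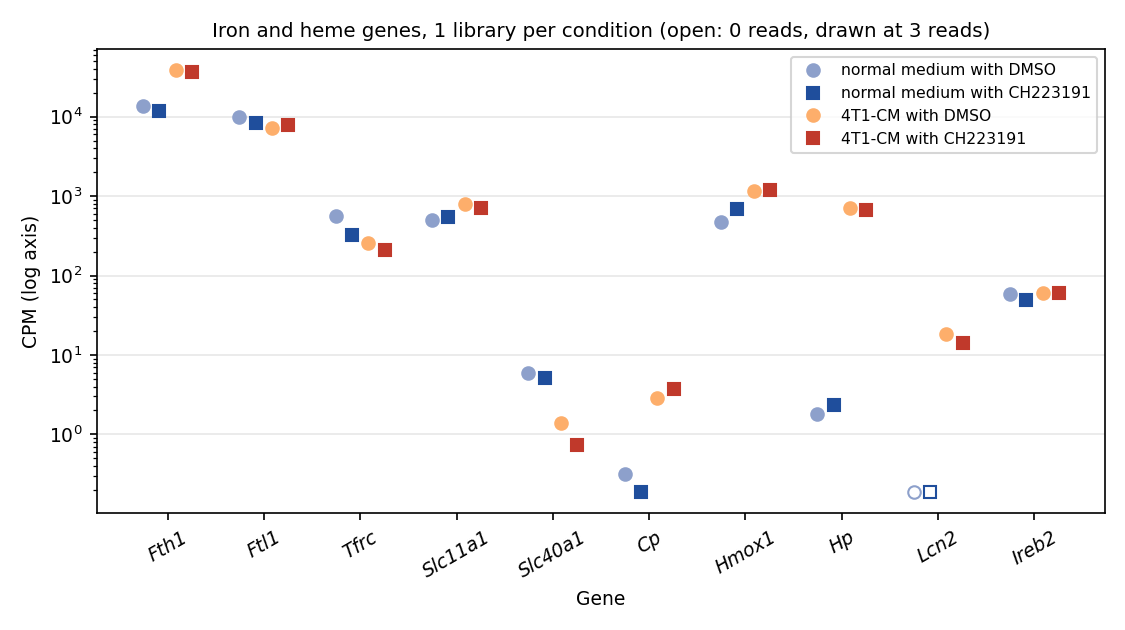
Levels of the 10 genes in CPM on a log axis, with 1 point for each of the 4 libraries (circles, DMSO; squares, CH223191; blue, normal medium; orange and red, 4T1-CM). The points of Fth1 reach 38365 CPM and those of Hp lie at 1.82 and 2.33 CPM in normal medium against 660 and 719 CPM in 4T1-CM; the open points of Lcn2 stand for 0 reads and are drawn at the level of 3 reads.

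The ferritin heavy chain was the most abundant of the 10 messages. Fth1 (ENSMUSG00000024661, chr19:9982703-9985092, plus strand) had 216149 reads with DMSO and 186084 with CH223191 in normal medium, and 671597 with DMSO and 590562 with CH223191 in 4T1-CM. Both libraries with 4T1-CM were above both in normal medium. Per kilobase of gene length, Fth1 ranked first of the 13715 genes kept in each of the 4 libraries, and by reads it moved from rank 5 and 7 in normal medium to rank 1 in both libraries with 4T1-CM. Its level was 2.83-fold higher with 4T1-CM and DMSO (log2 ratio 1.501, 95% interval 1.494 to 1.508) and 3.11-fold higher with 4T1-CM and CH223191 (1.64, 1.63 to 1.64).

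Ftl1 (ENSMUSG00000050708, chr7:45457944-45459884, minus strand), the light chain, did not share the direction of the heavy chain. It had 159773 reads with DMSO and 130871 with CH223191 in normal medium, and 125106 with DMSO and 126407 with CH223191 in 4T1-CM. Its level was lower with 4T1-CM, by a fold that stayed under the threshold. The log2 ratio was -0.49 (-0.50 to -0.48) with DMSO and -0.08 (-0.09 to -0.07) with CH223191. Per kilobase, Ftl1 ranked between 4 and 6 of the genes kept in each library.

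The balance of the 2 chains differed between the media. The ratio of Fth1 to Ftl1, in reads per kilobase, was 2.09 (95% interval 2.08 to 2.11) in normal medium with DMSO and 2.20 (2.19 to 2.22) with CH223191. In 4T1-CM it was 8.31 (8.26 to 8.36) with DMSO and 7.23 (7.19 to 7.27) with CH223191. Together the genes took 2.42% of all reads (exact Clopper-Pearson 95% interval 2.41% to 2.43%) in normal medium with DMSO and 1.97% (1.96% to 1.97%) with CH223191. With 4T1-CM they took 4.54% (4.53% to 4.55%) with DMSO and 4.38% (4.37% to 4.39%) with CH223191. Of the 50-base words in the transcripts of Ftl1, 58.4% also occur, on either strand, in transcripts of 17 other genes, among them the pseudogene Ftl1-ps1. For Fth1 the share was 1.59% of 3654 words of all annotated transcripts, while its deposited entry has 866 bases. Exons of Ftl1 overlap those of Gm10252 on the opposite strand by 355 bases, and Gm10252 is among the 17. They also overlap the microRNA gene Gm22133 on the same strand by 109 bases. Gm10252 had at most 8 reads and Gm22133 had 0. The 3 Ftl1 and Ftl2 pseudogenes had 2024 to 3330 reads per library, or 1.62% to 2.24% of those of Ftl1. How reads that match several genes were counted is not given in the sources used here, so the level of Ftl1 and the ratio of the chains are uncertain.

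**Figure D2:**
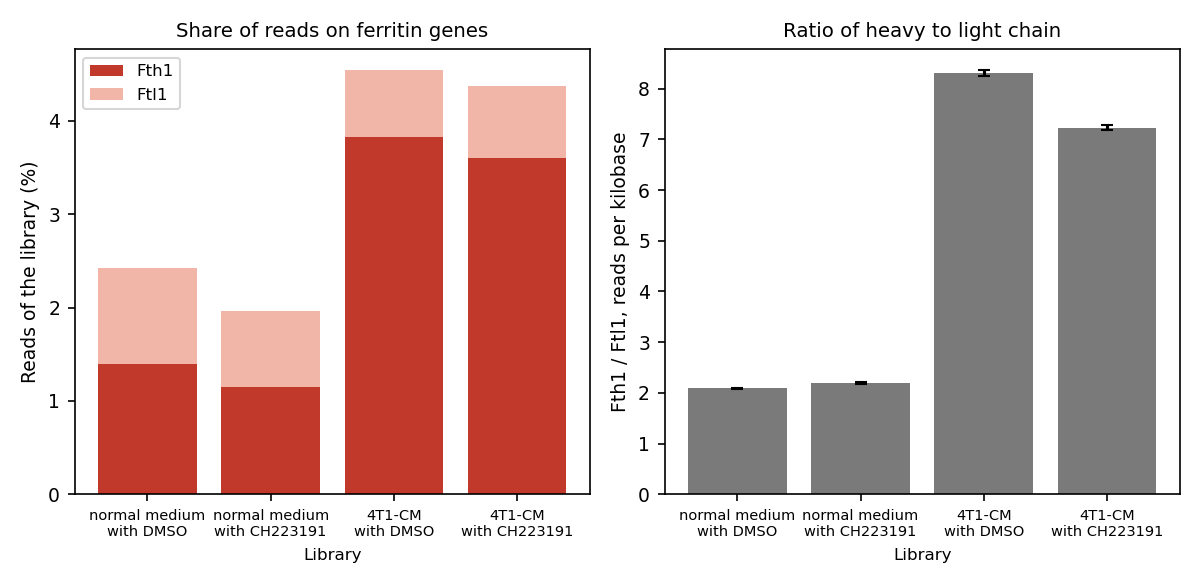
The left panel stacks the percentage of each library's reads on Fth1 (dark) and Ftl1 (light), and the right panel gives the ratio of Fth1 to Ftl1 in reads per kilobase, with 95% counting intervals as error bars. The ratio stands at 2.09 and 2.20 in normal medium and at 8.31 and 7.23 in 4T1-CM.

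Of the transporters, the receptor for transferrin was lower with 4T1-CM. Tfrc (ENSMUSG00000022797, chr16:32608920-32632794, plus strand) had 8848 reads with DMSO and 5224 with CH223191 in normal medium, and 4510 with DMSO and 3373 with CH223191 in 4T1-CM. Both libraries with 4T1-CM lay below both in normal medium, and in each medium the library with CH223191 lay below the one with DMSO. The level was 2.15-fold lower with 4T1-CM and DMSO (log2 ratio -1.11, -1.16 to -1.06) and 1.58-fold lower with 4T1-CM and CH223191 (-0.66, -0.72 to -0.60).

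Slc40a1 (ENSMUSG00000025993, chr1:45908068-45926523, minus strand), the iron exporter, was also lower with 4T1-CM, at a low level in each library. It had 94 reads with DMSO and 81 with CH223191 in normal medium, and 24 with DMSO and 12 with CH223191 in 4T1-CM. The log2 ratio with 4T1-CM was -2.08 (-2.82 to -1.45) with DMSO and -2.74 (-3.80 to -1.90) with CH223191. The 2 intervals overlap, and the difference of the ratios was -0.65 (-1.91 to 0.48). Per kilobase, ferroportin reached at most 0.655 CPM, against at least 33.6 CPM for Tfrc, so that the message of the importer outweighed that of the exporter in each library.

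Slc11a1 (ENSMUSG00000026177, chr1:74375195-74386062, plus strand), the phagosomal metal transporter, was moderately higher with 4T1-CM. It had 8029 reads with DMSO and 8603 with CH223191 in normal medium, and 13810 with DMSO and 11388 with CH223191 in 4T1-CM. Both libraries with 4T1-CM were above both in normal medium, with log2 ratios of 0.65 (0.61 to 0.69) with DMSO and 0.37 (0.33 to 0.41) with CH223191, under the 2-fold threshold.

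Cp (ENSMUSG00000003617, chr3:19957054-20009145, plus strand), the ferroxidase, was near the limit of detection in normal medium. It had 5 reads with DMSO and 3 with CH223191 in normal medium, and 50 with DMSO and 60 with CH223191 in 4T1-CM. The ratio with 4T1-CM was 9.11-fold (95% interval 3.65 to 29.3) with DMSO and 19.6-fold (6.39 to 97.6) with CH223191. Both intervals are wide. Cp passed the filter through the libraries with 4T1-CM alone, so its direction and size are given as a description. Exons of Cp overlap those of Hps3 on the opposite strand by 108 bases. Hps3 had 320 to 469 reads, and without a stated strand setting the reads of that stretch cannot be assigned to 1 of the genes.

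Hmox1 (ENSMUSG00000005413, chr8:75093621-75100589, plus strand) was higher with 4T1-CM. It had 7506 reads with DMSO and 10816 with CH223191 in normal medium, and 20252 with DMSO and 19179 with CH223191 in 4T1-CM. The libraries with 4T1-CM lay close together, at 1157 and 1181 CPM, while those in normal medium lay at 471 and 680 CPM. The level was 2.46-fold higher with 4T1-CM and DMSO (log2 ratio 1.30, 1.26 to 1.34) and 1.74-fold higher with 4T1-CM and CH223191 (0.80, 0.76 to 0.83), which is under the threshold.

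The largest ratios among the 10 genes were those of the secreted proteins Hp and Lcn2. Hp (ENSMUSG00000031722, chr8:109575128-109579172, minus strand) had 29 reads with DMSO and 37 with CH223191 in normal medium, and 12581 with DMSO and 10714 with CH223191 in 4T1-CM. Per kilobase it went from rank 10009 and 9513 of the genes kept in normal medium to rank 74 and 78 in 4T1-CM. The level was 395-fold higher (275 to 590) with DMSO and 284-fold higher (206 to 403) with CH223191.

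In normal medium Lcn2 (ENSMUSG00000026822, chr2:32384633-32388252, minus strand) had 0 reads, under DMSO as under CH223191, which allows up to 0.188 and 0.189 CPM. In 4T1-CM it had 326 reads under DMSO and 232 under CH223191. Against the limit of 3 reads in the library compared, the level was at least 99.0-fold higher with DMSO and at least 75.7-fold higher with CH223191. At 18.6 and 14.3 CPM, Lcn2 stayed far below Hp in the same libraries, also per kilobase, where Lcn2 was at 7.10 and 5.45 CPM and Hp at 448 and 411 CPM.

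Hp and Lcn2 are also made by neutrophils. Of 10 neutrophil markers, Ly6g, S100a9 and Retnlg had 0 reads in every library, and the granule genes Camp, Ltf and Ngp reached at most 0.457 CPM. The summed level of the 10 markers was 67.6 and 74.6 CPM in normal medium and 242 and 181 CPM in 4T1-CM. Most of that sum in 4T1-CM came from Mmp8 (122 and 46.7 CPM), Csf3r (86.9 and 108 CPM) and S100a8 (32.0 and 25.4 CPM). In normal medium, in the same order, they stood at 2.20 and 1.32, 58.3 and 60.3, and 6.21 and 11.95 CPM. Cxcr2 was lower in 4T1-CM, with 2 and 0 reads against 12 and 9. S100a9 had 0 reads in libraries where S100a8 had 99 to 560, and the reason was not tested. Under 4T1-CM, Hp reached 719 CPM (DMSO) and 660 CPM (CH223191). How much Hp message a neutrophil holds relative to these markers was not tested, so Hp cannot be weighed against their sum. The 6 fibroblast markers summed to 63.0 and 30.1 CPM in normal medium and 149 and 127 CPM in 4T1-CM, while the 4 mesothelial markers summed to at most 1.32 CPM and the 5 epithelial markers to at most 1.35 CPM. The part of these cells in the levels of Hp, Lcn2 and Cp was not tested.

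**Figure D3:**
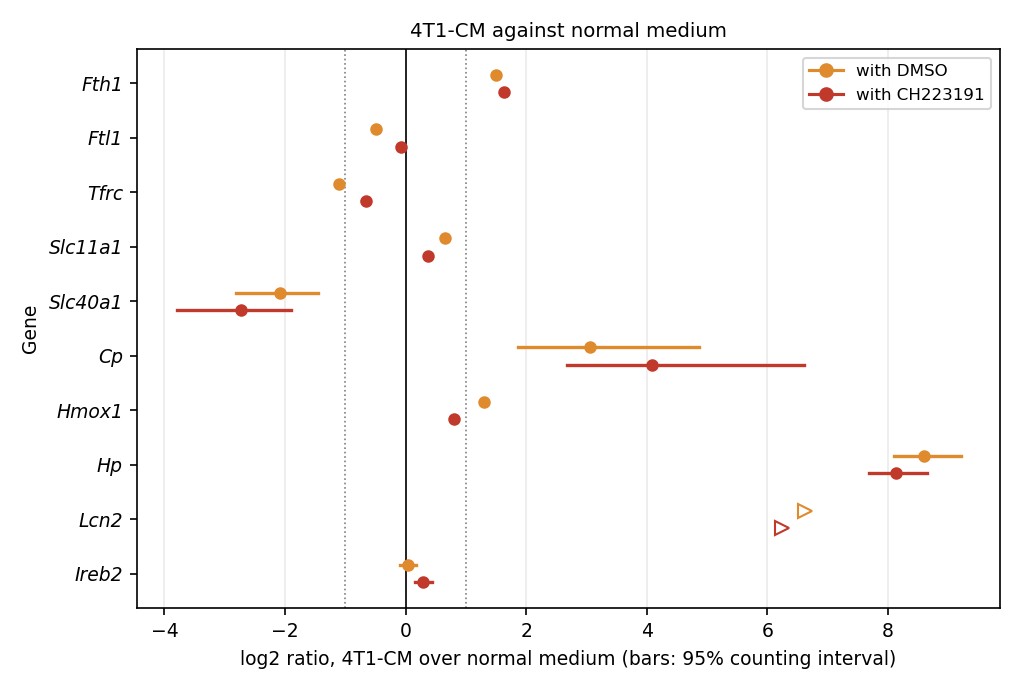
Log2 ratios of 4T1-CM over normal medium for the 10 genes, with DMSO (orange) and with CH223191 (red), and 95% counting intervals as bars; dotted lines mark a 2-fold difference. Hp lies at 8.60 and 8.13, the open triangles of Lcn2 mark lower bounds, and Slc40a1 and Tfrc lie left of 0 in both comparisons.

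Ireb2 (ENSMUSG00000032293, chr9:54863789-54912530, plus strand), which encodes a sensor that binds the hairpins above but not the only such sensor, differed little. It had 923 reads with DMSO and 772 with CH223191 in normal medium, and 1045 with DMSO and 966 with CH223191 in 4T1-CM. Its log2 ratio with 4T1-CM was 0.04 (-0.09 to 0.17) with DMSO, an interval that includes 0, and 0.29 (0.15 to 0.43) with CH223191. The 4 genes that carry a hairpin did not move as 1 group with 4T1-CM: of the 3 with the hairpin at the 5′ end, Fth1 was at least 2-fold higher and Slc40a1 at least 2-fold lower in both comparisons, and Ftl1 was under the threshold in both. Tfrc, with the hairpins at the 3′ end, was at least 2-fold lower with DMSO and under the threshold with CH223191. Read counts measure the amount of message, so the translation that the 5′ hairpins control was not measured.

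With CH223191, 0 of the 10 genes differed from DMSO by 2-fold or more in either medium, where 8.15% of all genes differed at least 2-fold in normal medium and 5.42% in 4T1-CM. In normal medium, where each ratio rests on the same library with DMSO as the comparison of the media above, Tfrc was 1.69-fold lower with CH223191 (log2 ratio -0.76, -0.81 to -0.71) and Hmox1 was 1.44-fold higher (0.53, 0.49 to 0.57). Fth1 was lower by a log2 ratio of -0.21 (-0.22 to -0.20), Ftl1 by -0.28 (-0.29 to -0.27) and Ireb2 by -0.25 (-0.39 to -0.12). The intervals of Slc40a1, Hp and Cp included 0, and Lcn2 had 0 reads in both libraries.

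In 4T1-CM, Tfrc was 1.24-fold lower (log2 ratio -0.31, -0.38 to -0.25) and Lcn2 was 1.30-fold lower (-0.38, -0.63 to -0.14). Hp was lower by -0.12 (-0.16 to -0.09), Fth1 by -0.08 (-0.08 to -0.07) and Slc11a1 by -0.17 (-0.21 to -0.14). Hmox1 stood at 0.03 (0.00 to 0.06). The intervals of Slc40a1 (-2.03 to 0.16), Cp (-0.20 to 0.94) and Ireb2 (-0.13 to 0.12) included 0.

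**Figure D4:**
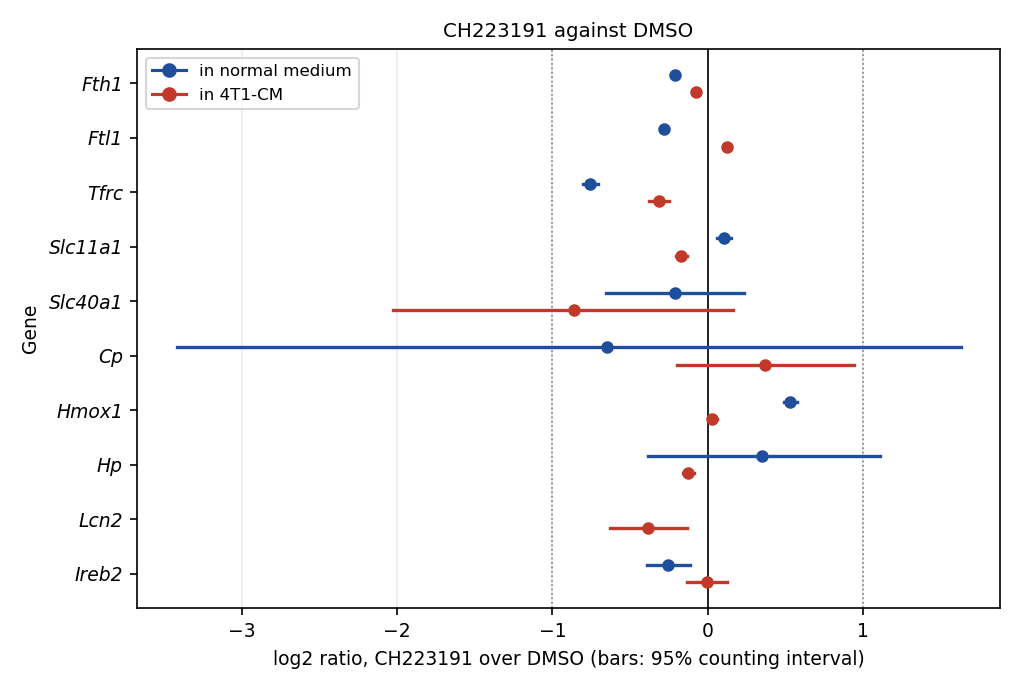
Log2 ratios of CH223191 over DMSO for the 10 genes, in normal medium (blue) and in 4T1-CM (red), with 95% counting intervals as bars; dotted lines mark a 2-fold difference. All plotted points lie between the dotted lines, bars that reach past a dotted line belong to Cp and Hp in normal medium and to Slc40a1 in 4T1-CM, and Lcn2 in normal medium is not drawn because both libraries have 0 reads.

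The response to 4T1-CM was also compared between CH223191 and DMSO, as the difference of the 2 log2 ratios with an exact conditional interval. For Hmox1 the ratio with 4T1-CM was smaller under CH223191 by -0.50 (-0.55 to -0.45) and for Slc11a1 by -0.27 (-0.33 to -0.22). For Tfrc the difference was 0.45 (0.36 to 0.53), for Ftl1 0.41 (0.39 to 0.42), for Ireb2 0.25 (0.06 to 0.44) and for Fth1 0.13 (0.12 to 0.15). For Hp it was -0.47 (-1.23 to 0.26) and for Cp 1.02 (-1.35 to 3.85), both with intervals that include 0. The difference for Hmox1 came mainly from the level in normal medium, 471 CPM with DMSO and 680 CPM with CH223191, since the levels in 4T1-CM lay within 1.02-fold of each other. Cultures were not replicated, and whether any of these differences exceeds the spread between cultures is not known.

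CH223191 blocks AHR, whose known DNA site has the core GCGTG. In the RefSeq promoter windows of GRCm38.p6, which run from 250 bases before to 50 bases after a start, 7 of the 10 genes had a window. Hmox1, Hp and Slc40a1 had none and were not searched. The core occurred on either strand in a window of 4 of them (Fth1, Ftl1, Slc11a1 and Tfrc), and in 35.2% of the 27025 genes with a window. A match is a description of letters and not a binding site.

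The other genes of iron and heme handling were read from a list of 56 genes by role, of which 45 were kept by the filter. With 4T1-CM and DMSO, 6 of the 45 were at least 2-fold higher, where 12.2% of all genes were, and 1 was lower, where 6.12% were. With 4T1-CM and CH223191 the counts were also 6 higher (12.0% of all genes) and 1 lower (7.86%), so the list stood near or below all genes in both. Past the threshold in both comparisons were 5 genes that were higher (Tfr2, Cd163, Fbxl5, Spic and Slc25a37; 8.18% of all genes) and Blvra, which was lower (3.38%). Of the 5, Tfr2, Cd163 and Spic had at most 5 reads in normal medium and passed the filter through the libraries with 4T1-CM alone. The median log2 ratio of the 45 genes was 0.07 with DMSO and -0.08 with CH223191, against 0.01 and 0.02 over all genes.

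Slc25a37 (mitoferrin 1), which carries iron into mitochondria, had the highest ratio of the list among genes with at least 10 reads in each library compared. It had 229 reads with DMSO and 305 with CH223191 in normal medium, and 2684 with DMSO and 2340 with CH223191 in 4T1-CM. The log2 ratio with 4T1-CM was 3.41 (3.22 to 3.62) with DMSO and 2.91 (2.74 to 3.09) with CH223191. It was the 1 of 7 genes for mitochondrial iron and iron-sulfur clusters past the threshold, and the median of the 7 was -0.23 with DMSO and -0.20 with CH223191.

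Fbxl5, the iron-binding subunit of the ligase that marks IRP2 for degradation, was the other well-read gene that was higher in both comparisons. It had 730, 617, 1667 and 1647 reads in the order of DMSO and then CH223191 in normal medium, followed by the same pair in 4T1-CM. Its log2 ratios with 4T1-CM were 1.06 (0.93 to 1.18) with DMSO and 1.38 (1.25 to 1.52) with CH223191. Fbxl5 was thus higher with 4T1-CM while the message of its target Ireb2 was within 1.23-fold. Aco1, which encodes another sensor that binds the hairpins (IRP1), had 2133, 2018, 1869 and 1714 reads in the same order. It was lower with 4T1-CM and under the threshold, with log2 ratios of -0.326 (-0.416 to -0.235) with DMSO and -0.266 (-0.36 to -0.173) with CH223191.

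Blvra and Blvrb went the other way from Hmox1. Blvra encodes biliverdin reductase A, which turns the product of heme oxygenase into bilirubin, and Blvrb encodes biliverdin reductase B. Blvra had 2222, 1933, 981 and 884 reads in the same order of libraries, with log2 ratios of -1.31 (-1.42 to -1.21) with DMSO and -1.16 (-1.28 to -1.04) with CH223191. Blvrb had 3331, 3733, 1830 and 1932 reads, with log2 ratios of -0.999 (-1.08 to -0.92) and -0.98 (-1.06 to -0.90), just short of the threshold. None of the 10 genes of heme synthesis that were kept passed 2-fold in any of the 4 comparisons, and their median with 4T1-CM was -0.31 with DMSO and -0.16 with CH223191. Alad, the second enzyme of that pathway, had 757, 571, 441 and 496 reads, with log2 ratios with 4T1-CM of -0.91 (-1.09 to -0.74) and -0.23 (-0.41 to -0.06).

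**Figure D5:**
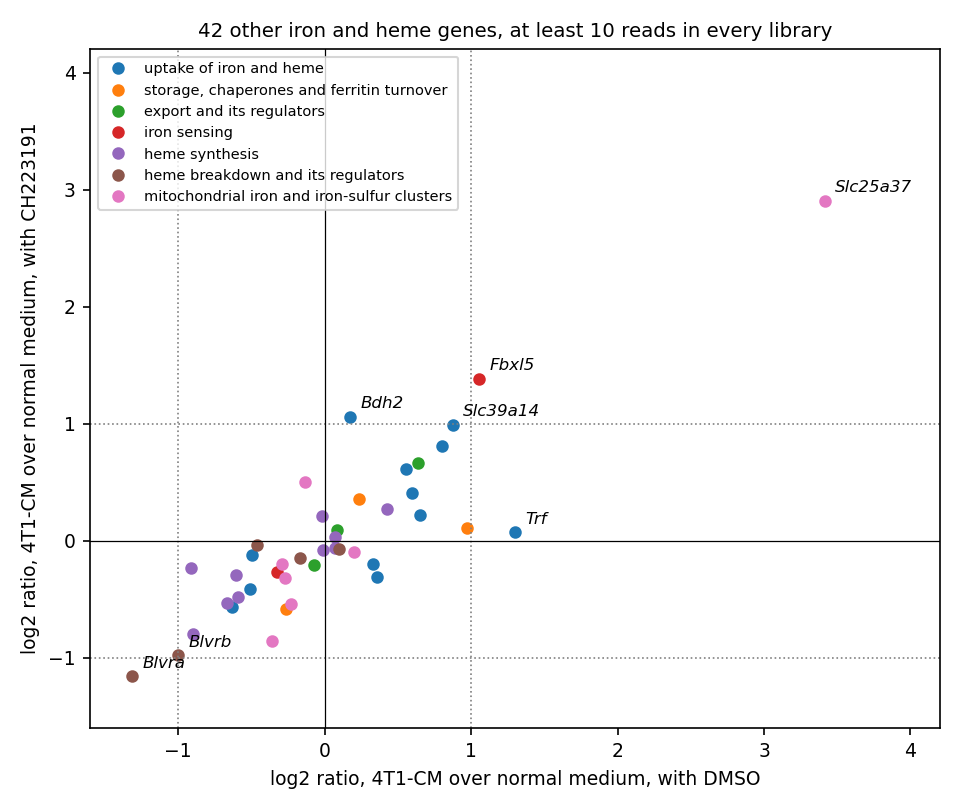
Log2 ratios of 4T1-CM over normal medium for the 42 listed genes that had 10 or more reads in all 4 libraries, with DMSO on the horizontal and with CH223191 on the vertical axis, colored by role; dotted lines mark a 2-fold difference. Slc25a37 stands alone at 3.41 and 2.91, Blvra lies lowest at -1.31 and -1.16, and most genes lie within the dotted lines.

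Among the 14 genes of uptake that were kept, Trf, Tfr2 and Cd163 were at least 2-fold higher with 4T1-CM under DMSO (12.2% of all genes), and Tfr2, Cd163 and Bdh2 under CH223191 (12.0%). Trf, which encodes transferrin, had 130, 363, 352 and 390 reads, so that the library in normal medium with DMSO was the low one. Its log2 ratio with 4T1-CM was 1.30 (1.01 to 1.60) with DMSO and 0.07 (-0.14 to 0.28) with CH223191. Tfr2, a second transferrin receptor, had 1, 5, 29 and 32 reads, and Cd163, the scavenger receptor for complexes of haptoglobin and hemoglobin, had 1, 0, 16 and 12. Spic, a transcription factor of iron-recycling macrophages, had 0, 3, 18 and 9 reads. These counts are too low to give the size of a difference. Bdh2, an enzyme linked to a mammalian siderophore, had 12, 11, 15 and 24 reads, and its ratio of 1.06 with CH223191 had an interval from 0.01 to 2.27. Slc22a17, a receptor for lipocalin 2, had 24, 28, 34 and 23 reads, and all 4 of its intervals included 0.

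With CH223191 in normal medium, 3 of the 45 genes were at least 2-fold higher (Trf, Tfr2 and Spic), where 4.84% of all genes were, and Cd163 was lower, where 3.31% were. Of these only Trf had more than 5 reads in either library, with a log2 ratio of 1.48 (1.19 to 1.78). Among the 42 genes with 10 reads or more in all libraries, Trf alone was higher (1.92% of all such genes) and 0 were lower (0.756%). Pcbp2, a chaperone that delivers iron to ferritin, followed with 1024 reads with DMSO and 1868 with CH223191 (0.87, 0.76 to 0.98), and it had 2201 and 2051 reads in 4T1-CM. Among the lowest ratios was that of Alad, with 757 reads with DMSO and 571 with CH223191 (-0.40, -0.56 to -0.25). With CH223191 in 4T1-CM, 0 of the 45 genes passed 2-fold in either direction, where 2.80% of all genes were higher and 2.62% lower. The lowest ratio there with an interval that excluded 0 was that of Slc39a8, a zinc and iron importer, with 230 reads with DMSO and 163 with CH223191 (-0.39, -0.69 to -0.09).

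11 of the 56 genes were not kept. Among them, Ftmt (mitochondrial ferritin) and Hephl1 had 0 reads in every library, Hamp, which encodes the hormone hepcidin that removes ferroportin from the membrane, had at most 4, and Heph, a second ferroxidase, had at most 5. Ltf (lactoferrin) had at most 4 reads and the erythroid enzyme Alas2 had at most 2.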

How the data were processed

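The table deposited by the authors holds raw counts (whole numbers of reads per gene, not normalized), with 1 column per library. The submitters' processing notes name HISAT2 2.0.5 and DESeq2. The methods describe featureCounts for alveolar macrophages only, and the genome build, annotation and strand setting of these libraries are not given in the sources used here. Columns were matched to samples by their names. Gene lengths are those of the deposited table.

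The 10 genes and the list of 56 were chosen with earlier results of these data known. A gene was kept if any library had 10 reads or more (13715 genes). Scaling between libraries used TMM factors from edgeR 4.0.16 (R 4.3.3) with values of 0.986 to 1.03, applied to the totals. Log2 ratios used a prior count of 0.5, and a gene was called at 2-fold. Because each condition has 1 library and the genes were chosen on these values, no p-value is given. The reads of a gene in 2 libraries were taken as a binomial split, whose exact Clopper-Pearson bounds give the 95% interval of the ratio, and that of a difference of 2 ratios is the conditional interval of Fisher's exact test. Both cover counting error only, since reads are not independent molecules. Against a library at 0 reads, a fold is a bound from 3 reads that leaves out the counting error of the other library. Of the listed genes, those at least 2-fold changed the same way with 4T1-CM in both comparisons are named, with the 2 highest and the 2 lowest ratios of each comparison among genes with at least 10 reads in both libraries, except 1 gene that is not reported here. Genes at 0 or a few reads and Aco1 are named in addition, chosen after their values were seen, and so was the motif search in promoters. Python 3.11.15, numpy 2.4.6, pandas 2.3.3, scipy 1.17.1 and matplotlib 3.10.9 were used. The procedure was tested on simulated data with counting error alone, so that test does not cover the spread between cultures. Results were recomputed with DESeq2 1.42.0 size factors, with scaling to total counts, without a filter, with a minimum of 10 reads in all libraries, with a prior count of 5 and with protein-coding genes alone.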

Additional observations from a re-analysis of the deposited data

Results flagged for a closer look

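For 4 of the genes reported here the difference with CH223191 pointed one way in normal medium and the other way in 4T1-CM, with both counting intervals clear of 0. With 1 library per condition the difference between the media has no replicate test, and the intervals given for it cover counting error only. The log2 ratio of Ftl1 was -0.28 in normal medium but 0.12 with 4T1-CM. Slc11a1 had 0.10 and -0.17, in that order. Slc25a37 had 0.42 and -0.09. Alad had -0.40 and 0.28. The ratio in 4T1-CM minus that in normal medium was 0.41 (0.39 to 0.42) for Ftl1, -0.27 (-0.33 to -0.22) for Slc11a1, -0.51 (-0.77 to -0.24) for Slc25a37 and 0.68 (0.43 to 0.93) for Alad. All 8 ratios with CH223191 were under 2-fold.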

How the results depend on the processing

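No paired analysis was possible because each condition has 1 library and the labels give no replicate numbers. No ratio of the 10 genes past 2-fold changed direction under any alternative. With the size factors of DESeq2 the log2 ratios moved by at most 0.01 and with total counts by at most 0.06. Such shifts can exceed a narrow counting interval. With total counts, 13 of the log2 ratios and differences of ratios of the 10 genes fell outside their counting interval and 37 stayed inside. With DESeq2 size factors, 3 fell outside and 47 stayed inside. Requiring 10 reads in every library removes Lcn2 and Cp by construction and left 3 of the genes higher with 4T1-CM and DMSO, 2 higher with 4T1-CM and CH223191, and 3 called the same way in both. A prior count of 5 moved log2 ratios by up to 3.30, for genes at or near 0 reads. Of the list of 56 genes, a minimum of 10 reads in all libraries left 3 higher with 4T1-CM under DMSO, 4 under CH223191, and the inhibitor in normal medium gave 1 higher and 0 lower, as with a prior count of 5. With no filter, 9 were higher and 3 lower with 4T1-CM under DMSO, 8 were higher and 3 lower under CH223191, and the inhibitor gave 5 higher and 2 lower in normal medium and 4 higher and 1 lower with 4T1-CM. With total counts, 2 were lower with 4T1-CM and DMSO, because Blvrb then passed the threshold. The share of reads on Fth1 and Ftl1 became 2.44% and 1.98% in normal medium and 4.55% and 4.39% in 4T1-CM (DMSO, then CH223191) with the pseudogene reads added, and 3.16%, 2.61%, 6.0% and 5.85% without the 50 most abundant other genes. Depth limits Slc40a1, Cp, Tfr2, Cd163 and Spic, whose intervals are wide.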
